A study of Mus musculus with 7 samples.

Results

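The let-7 family is a set of closely related miRNAs that share one seed and that were read here with 9 probes, mmu-let-7a, mmu-let-7b, mmu-let-7c, mmu-let-7d, mmu-let-7e, mmu-let-7f, mmu-let-7g, mmu-let-7i and mmu-miR-98, where mmu stands for Mus musculus and is left out of the prose below. The members were chosen by name and make up 9 of 566 probes for mouse miRNAs. No other probe on the panel was named for let-7 or miR-98, so minor strands of the same precursors were not read under those names. The tumor group holds 4 astrocytoma samples from CD1 mice carrying the hGFAP-HaV12-Ras transgene, taken at postnatal days 65, 104, 125 and 134. The normal group holds 3 samples of neocortical layers II to IV from wild-type CD1 mice at postnatal day 60. Tumor 2 and neocortex 2 were female and the other 5 samples male. The construct name places an activated Ras under the human promoter of GFAP, which is active in astrocytes and neural progenitors. Tumors were dissected as bulk tissue and were older than the neocortex samples, and age and group cannot be told apart. The assay was NanoString's nCounter panel for mouse miRNAs, version 1.3, in which color-coded probes bound to total RNA are counted.

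A miRNA guides a silencing complex to messenger RNAs that pair with its seed, the bases near its 5′ end, and lowers their output. The let-7 family is low in stem cells, accumulates as cells differentiate and is abundant in adult brain. Its known targets include the messages of Ras, Myc, Hmga2 and Lin28, and the Lin28 proteins in turn block let-7 maturation, which is why the family is often described as a brake on tumor growth.

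The mature sequences show why the 9 probes form one group and how far each can be told from the next. They are the RefSeq sequences of assembly GRCm38.p6, written 5′ to 3′ with the seed, bases 2 to 8, in capitals.
mmu-let-7a: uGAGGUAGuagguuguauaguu
mmu-let-7b: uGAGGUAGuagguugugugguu
mmu-let-7c: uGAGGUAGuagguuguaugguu
mmu-let-7d: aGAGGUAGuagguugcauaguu
mmu-let-7e: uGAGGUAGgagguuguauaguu
mmu-let-7f: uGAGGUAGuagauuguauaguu
mmu-let-7g: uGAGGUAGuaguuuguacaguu
mmu-let-7i: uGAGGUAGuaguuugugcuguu
mmu-miR-98: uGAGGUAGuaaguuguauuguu
All 9 matched a sequence by name, all are 22 bases long and all have the same seed. They are identical at 14 of the 22 positions. Counted from 1 at the 5′ end and with the base of let-7a first, let-7c differs from let-7a by A19G, let-7e by U9G and let-7f by G12A. let-7i is the farthest from let-7a, with G12U, A17G, U18C and A19U. Of the 36 pairs of members, 4 are a single base apart (let-7a with let-7c, let-7e or let-7f, and let-7b with let-7c), and the most distant pair differs at 6 bases. Signal of such near-identical miRNAs on each other's probes was not measured, so the split between the closest members is uncertain.

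The seed was looked up in other panel miRNAs as far as their names allowed. Of 241 that matched a single mature sequence by name, miR-1961 was the 1 non-member with these bases at positions 2 to 8. The other 325 names, 6 of the 9 members among them, had no single match in this lookup and were not searched. It was above the cutoff in tumor 1 and tumor 3, at 3.94 and 3.78 on the log2 scale, and was listed at 0 in the other 5 samples. miR-202-3p, whose seed differs at its last base, lay between 3.71 and 4.17 in the tumors and was listed at 0 in the neocortex samples. The lowest values listed in neocortex were 4.65 to 5.21, above all of these tumor values, so neither probe could be compared between the groups.

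In the RefSeq annotation of GRCm38.p6 the members come from several clusters. The let-7d, let-7f-1 and let-7a-1 genes lie together on the minus strand of chromosome 13, with let-7f-1 at 48537829 to 48537917. let-7f has a further gene on chromosome X, at 151912346 to 151912428, beside the miR-98 gene and within the span of Huwe1. The let-7b and let-7c-2 genes lie together on chromosome 15 within Lncppara, a long noncoding RNA gene. let-7c-1 follows the miR-99a gene on chromosome 16, let-7a-2 lies between the miR-100 and miR-125b-1 genes within Mir100hg on chromosome 9, and let-7e lies beside the miR-125a gene within the span of Spaca6 on chromosome 17. let-7g lies within the span of Wdr82 on chromosome 9, and let-7i, on the minus strand of chromosome 10 at 122985640 to 122985724, lies within no other annotated gene. The probes read mature miRNAs, so the contributions of separate genes to let-7a, let-7c and let-7f are not resolved.

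Depth differed between the groups. Counts recovered from the deposited values summed to 117640 to 208066 over the miRNA probes of a tumor sample, against 23578 to 60791 in a neocortex sample, while the brightest positive-control probe had 13106 to 16897 counts in tumor and 10283 to 14878 in neocortex. A member had 442 to 8807 counts in a tumor sample and 98 to 2685 in a neocortex sample, so all 9 lay above the cutoff, under which values are listed at 0, in all 7 samples. Among miRNAs known to be enriched in brain cell types, all 6 neuron-enriched, all 3 oligodendrocyte-enriched and all 3 astrocyte-enriched miRNAs on the fixed lists were above the cutoff in every sample of both groups, so their detection does not tell tumor from neocortex.

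The family as a whole was about as abundant in tumor as in neocortex on the authors' scaling. Its summed linear signal was 13531, 16084, 14693 and 16211 in tumors 1 to 4, against 16055, 12754 and 13499 in neocortex 1 to 3. The groups overlapped, and the neocortex samples spanned most of the tumor range. The sum averaged 15130 ± 1268 in tumor (SD, n = 4) and 14103 ± 1731 in neocortex (SD, n = 3), a ratio of 1.07. The 9 members made up 12.0% to 14.7% of the summed signal of all miRNA probes in the tumors and 11.7% to 14.8% in the neocortex samples. The mean signal of the 100 brightest miRNA probes was nearly equal in all 7 samples, 994 to 1016. All 9 members were among these probes, at ranks 4 to 49. The family's abundance is thus relative to a near-constant signal that includes the family itself. Scaled on non-members, the log2 difference of the sum was 0.087, against 0.10 as deposited.

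Each member's share of the family's summed signal describes its makeup. A share cannot be moved by any factor that scales a whole sample, but it is a share of probe signal and not of molecules, since the capture efficiency of each probe is unknown. let-7c, the top member of the family in every sample, held 26.0%, 29.3%, 27.9% and 28.8% in tumors 1 to 4, and 29.9%, 22.9% and 29.7% in neocortex 1 to 3. let-7c, let-7g and let-7a together held 56.9% to 61.7% of the family signal in the 7 samples. let-7e held the smallest share in every sample, 2.73% to 3.14% in tumor and 2.27% to 3.59% in neocortex.

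The order of the shares was let-7c, let-7g, let-7a, let-7d, let-7b, let-7f, let-7i, miR-98 and let-7e by the mean over all samples. Only 2 steps in that order separated every sample of the higher member from every sample of the next, let-7c over let-7g and let-7i over miR-98. let-7f and let-7i were not separated, with let-7f above let-7i in 4 of 7 samples. Within single samples let-7a was above let-7d in all 7 and miR-98 above let-7e in all 7, although the ranges of these pairs overlapped between samples.

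**Figure D1:**
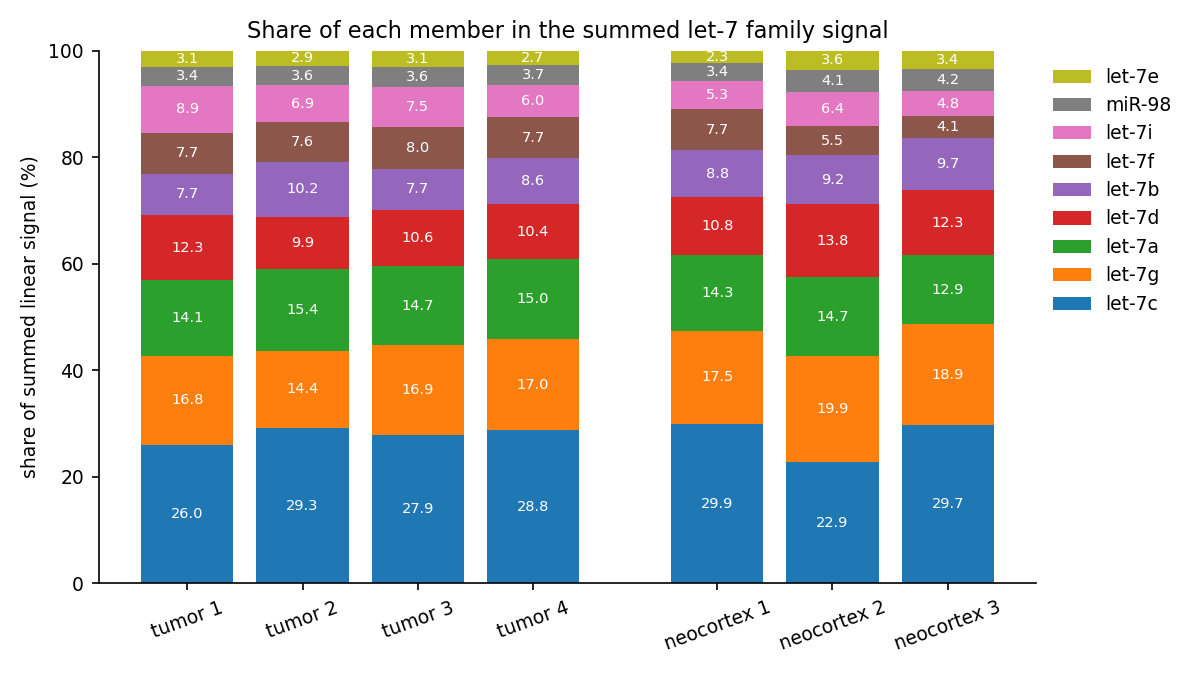
Stacked bars give the share of each member in the summed linear signal of the 9 members (percent, vertical axis) in each of the 4 tumor and 3 neocortex samples (horizontal axis). let-7c is the largest segment in every bar, and the let-7f segment is 7.57% to 7.95% in the tumors and 4.09% to 7.69% in the neocortex samples.

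Shares of most members overlapped between the groups. let-7g was the 1 of 9 members whose share was lower in every tumor than in every neocortex sample, and no share was higher in every tumor. Deposited levels are an unlike measure, since they do not sum to a whole, and those of 32.9% of tested miRNAs did not overlap in either direction. The share of let-7g was 16.8%, 14.4%, 16.9% and 17.0% in tumors 1 to 4, against 17.5%, 19.9% and 18.9% in neocortex 1 to 3. The difference was -2.51 percentage points, and -1.33 points in male samples alone. The nearest samples, tumor 4 and neocortex 1, had 95% Wilson intervals of 16.6% to 17.4% and 16.8% to 18.3%, which overlap and cover counting error only. A lower share of let-7g does not mean a lower level, because the shares sum to a whole and those of let-7f and let-7i were higher on average in tumor.

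let-7f had a nearly constant share in tumor and a variable one in neocortex. It held 7.67%, 7.57%, 7.95% and 7.72% in tumors 1 to 4, against 7.69%, 5.48% and 4.09% in neocortex 1 to 3. Neocortex 1 lay within the tumor range and the other neocortex samples below it. The Wilson interval of the lowest share, in neocortex 3 with 119 let-7f counts of 2914 family counts, was 3.42% to 4.86%, and that of neocortex 1 was 7.16% to 8.26%.

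let-7i held 8.88%, 6.87%, 7.47% and 5.98% in tumors 1 to 4, against 5.29%, 6.43% and 4.77% in neocortex 1 to 3. Tumor 4 lay below neocortex 2, so the shares overlapped. The mean share was 7.30% ± 1.22 in tumor (SD, n = 4) and 5.50% ± 0.85 in neocortex (SD, n = 3). The remaining members, let-7a, let-7b, let-7c, let-7d, let-7e and miR-98, had overlapping shares. Their mean differences depended on single samples. The difference was -1.52 points for let-7d, and -2.28 without neocortex 1 and -0.78 without neocortex 2. It was 0.85 points for let-7a, and 0.35 without neocortex 3. It was 0.48 points for let-7c, and ran from -1.83 without neocortex 2 to 1.69 without neocortex 1.

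The comparison of tumor with neocortex in levels asks whether this group of presumed tumor suppressors differs between the astrocytoma and normal gray matter. Levels are the deposited log2 values, fitted with limma over the 283 miRNAs whose mean level reached the median of the panel, and p-values were adjusted by the Benjamini-Hochberg method over all 283. None of the 9 members passed an adjusted p of 0.05 in limma. Before adjustment 1 member, let-7i, was higher with p under 0.05 and 0 were lower. Over all tested miRNAs, 17.7% were called, 8.13% higher and 9.54% lower, and 14.5% were higher at an unadjusted p under 0.05. Differences of the members ran from -0.10 to 0.58, 5 above 0 and 4 below, with a median of 0.08. The median was 0.03 over all 283 tested miRNAs, with 144 above 0 and 139 below. Over the 197 of them above the cutoff in every sample, as all members were, it was -0.29, with 63 above 0 and 134 below. The median size of the members' differences without regard to sign was 0.10, against 0.72 over all 283 and 0.52 over the 197. The members are bright probes, and the median SE of their differences was 0.18, against 0.32 over the 283 and 0.27 over the 197.

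**Figure D2:**
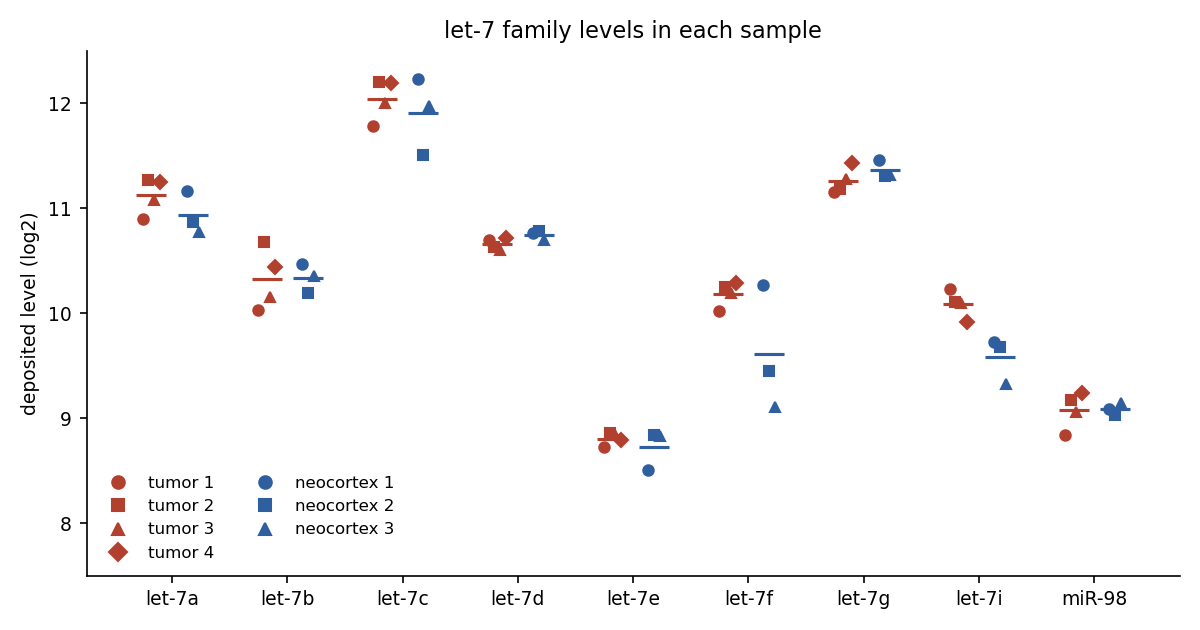
Points give the deposited log2 level (vertical axis) of each member (horizontal axis) in single samples, tumor in red at the left of each pair and neocortex in blue at the right, with a bar at the group mean. let-7i is the member whose groups do not overlap, and let-7f has a neocortex range of 1.16 against 0.27 in tumor.

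let-7i, the member farthest in sequence from let-7a, had levels of 10.23, 10.11, 10.10 and 9.92 in tumors 1 to 4, against 9.73, 9.68 and 9.33 in neocortex 1 to 3. Every tumor value was above every neocortex value, as was the case for 13.8% of all tested miRNAs, while 32.9% were separated in either direction. The level averaged 10.09 ± 0.13 in tumor (SD, n = 4) and 9.58 ± 0.22 in neocortex (SD, n = 3). The difference of 0.51 (SE 0.18), a ratio of 1.42 with a 95% interval of 1.06 to 1.92, had an adjusted p of 0.104 in limma and did not pass the test. With any 1 sample left out the difference stayed between 0.39 and 0.59. With no filter on low values, where 566 probes were tested and 11.8% were called higher, its limma adjusted p was 0.047, and over the other alternatives it lay between 0.0016, on positive-control scaling, where 80.6% of tested miRNAs were called higher, and 0.25, without neocortex 3. let-7i had 1250 to 1826 counts in a tumor sample and 139 to 475 in a neocortex sample.

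let-7f, a partner of let-7a in the cluster on chromosome 13, had the largest spread of the family within neocortex. Its levels were 10.02, 10.25, 10.19 and 10.29 in tumors 1 to 4, against 10.27, 9.45 and 9.11 in neocortex 1 to 3. The groups overlapped because neocortex 1 was as high as the tumors. The difference of 0.58 (SE 0.30), with an interval of -0.14 to 1.29, had an adjusted p of 0.21 in limma, and 0.0066, on positive-control scaling, to 0.52, on housekeeping mRNA scaling, over the alternatives. It was above that of let-7i with all samples, but below it without tumor 4, without neocortex 2, without neocortex 3 and in male samples alone. Without neocortex 1 the difference was 0.91 with a limma adjusted p of 0.016, in a fit that called 11.3% of tested miRNAs higher, and without neocortex 3 it was 0.33, so single neocortex samples decided the size and the call. The neocortex range of 1.16 was equalled or exceeded by 23 of the 197 miRNAs above the cutoff in all samples, and the tumor range of 0.27 by 182 of them.

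The neocortex values of let-7f followed the depth of the samples. Neocortex 1, 2 and 3 had 690, 238 and 119 let-7f counts, and exact Poisson intervals, which cover counting error only, were 639 to 743, 209 to 270 and 98.6 to 142 counts. In 3 of the 9 members, let-7a, let-7f and let-7i, the neocortex levels stood in the order of the total counts, as did 9.64% of the 197 miRNAs above the cutoff in all samples. let-7d, at 10.76, 10.78 and 10.70 in the same samples, did not. The part of depth in the let-7f and let-7i values was not tested.

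**Figure D3:**
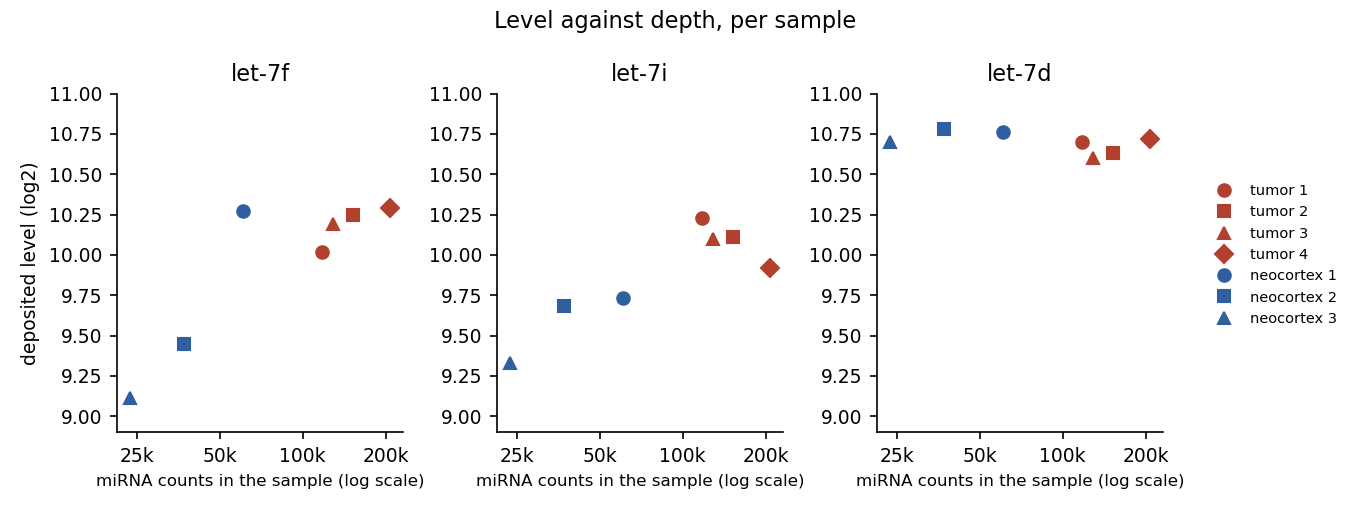
Each panel sets the deposited log2 level of let-7f, let-7i or let-7d (vertical axis) against the recovered miRNA counts of the sample (horizontal axis, log scale), with tumor samples in red and neocortex samples in blue. let-7f and let-7i are lowest in neocortex 3, the sample with 23578 counts, and let-7d stays between 10.60 and 10.78 in all 7 samples.

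let-7d, which in mouse neural stem cells is known to favor differentiation, was the steadiest member. It was at 10.70, 10.63, 10.60 and 10.72 in tumors 1 to 4, against 10.76, 10.78 and 10.70 in neocortex 1 to 3. Its range was 0.12 in tumor and 0.08 in neocortex, where the medians over 197 miRNAs were 0.65 and 0.61, and only 2 and 3 of those miRNAs, let-7d included, had a range as small in tumor and in neocortex. The difference was -0.08 with an interval of -0.42 to 0.26, which leaves room for ratios of 0.75 to 1.19.

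The members of the clusters with let-7a and let-7b overlapped between the groups. let-7a, known for repressing Ras messages in human cells, had levels of 10.90, 11.27, 11.08 and 11.25 in tumors 1 to 4, against 11.16, 10.87 and 10.77 in neocortex 1 to 3. let-7b, which in mouse neural stem cells is known to slow proliferation, had levels of 10.03, 10.68, 10.15 and 10.44 in tumors 1 to 4, against 10.47, 10.19 and 10.35 in neocortex 1 to 3. let-7c had levels of 11.78, 12.20, 12.00 and 12.19 in the tumors, against 12.23, 11.51 and 11.97 in the neocortex samples. Neocortex 1 was the highest neocortex sample in all 3 and lay within or just above the tumor range, and the differences were 0.19, -0.01 and 0.14 with limma adjusted p of 0.48, 0.96 and 0.66.

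let-7g, let-7e and miR-98 also showed little difference in level. let-7g was at 11.15, 11.18, 11.28 and 11.43 in tumors 1 to 4, against 11.46, 11.31 and 11.32 in neocortex 1 to 3. let-7e was at 8.73, 8.86, 8.84 and 8.79 in the tumors, against 8.51, 8.84 and 8.83 in the neocortex samples. miR-98, encoded beside let-7f-2, was at 8.84, 9.17, 9.06 and 9.24 in the tumors, against 9.09, 9.03 and 9.14 in the neocortex samples. Each of the 3 had overlapping groups, with differences of -0.10, 0.08 and -0.01. Among the 7 members other than let-7f and let-7i, the widest 95% intervals were those of let-7b, -0.53 to 0.50, and let-7c, -0.42 to 0.70, and the narrowest was that of let-7d. Shifts within a member's own interval are not excluded by these samples. The intervals do not give the smallest shift that the test could have called.

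**Figure D4:**
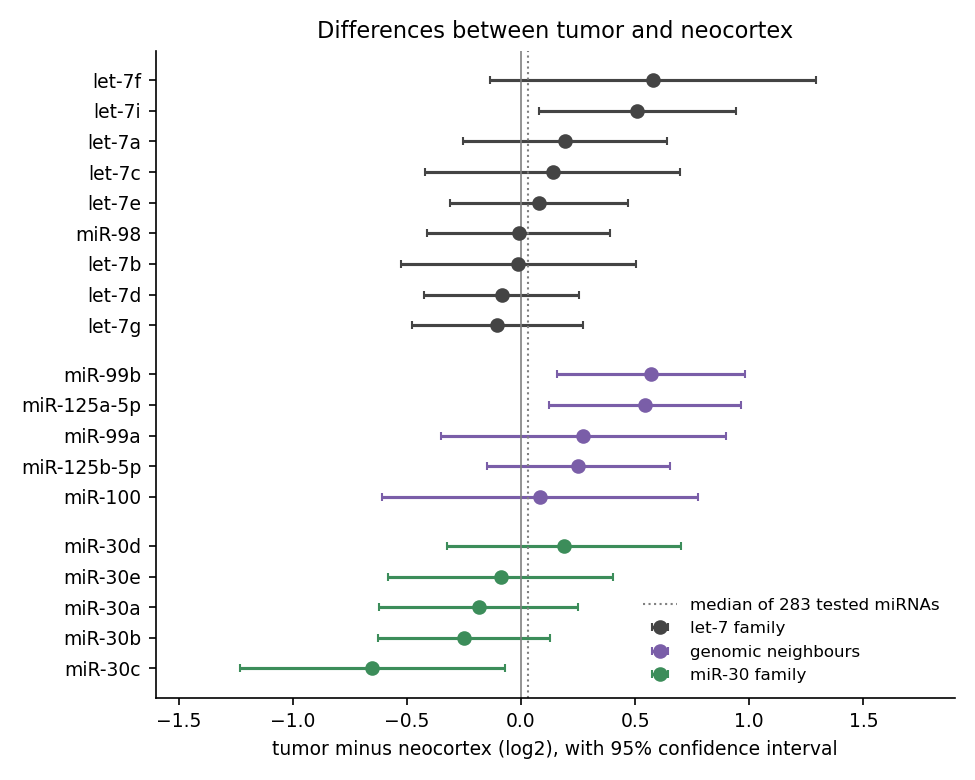
Points give the log2 difference, tumor minus neocortex (horizontal axis), with its 95% confidence interval from limma, for the 9 family members, 5 miRNAs encoded beside let-7 genes and 5 members of the miR-30 family (rows). The interval of let-7i, 0.08 to 0.94, lies above 0, those of the other 8 let-7 members cross it, and the dotted line marks the median of 283 tested miRNAs at 0.03. The median of the 197 of them above the cutoff in every sample, -0.29, is not drawn.

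Differences between members do not depend on the scaling of whole samples. let-7i and let-7g share the changes G12U and U18C from let-7a, and their log2 gap, let-7i minus let-7g, was -0.92, -1.07, -1.18 and -1.51 in tumors 1 to 4, against -1.73, -1.63 and -1.99 in neocortex 1 to 3. The gap was narrower in every tumor than in every neocortex sample, by 0.61 on average. Gaps did not overlap between the groups in 6 of the 36 pairs of members, or 16.7%, against 35.9% of all pairs of the 197 miRNAs above the cutoff in every sample. let-7i and let-7g were each in 3 of those 6 pairs and let-7f in 2, while the gap of let-7i to let-7f overlapped, with a difference of -0.07. let-7i minus let-7d was likewise -0.80 to -0.47 in the tumors and -1.37 to -1.03 in the neocortex samples. let-7f minus let-7a was -0.94 ± 0.07 in tumor (SD, n = 4) and -1.32 ± 0.39 in neocortex (SD, n = 3), with neocortex 1 at -0.89 inside the tumor range. When every sample was scaled on the summed family signal and all miRNAs were refitted, let-7i lay at 0.41 and let-7f at 0.47 with limma adjusted p of 0.24 and 0.23, and no member passed, where 5.3% of tested miRNAs were called higher and 9.54% lower.

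The direction of the family's difference depended on what the samples were scaled on. Scaled on the positive-control probes, all 9 members were higher in tumor in limma, with differences of 1.61 to 2.29, but 80.6% of tested miRNAs were called higher in that fit and the median over all was 1.74. Scaled on housekeeping mRNA probes, 4 members were lower, let-7d at -1.04, let-7e at -0.88, let-7g at -1.06 and miR-98 at -0.97, where 47.7% of tested miRNAs were called lower and the median was -0.93. A factor per sample moves all values not listed at 0 alike, those of the 9 members included. With the scalings so built, let-7f and let-7i lay 0.55 and 0.48 above the median of the 283 tested miRNAs as deposited and on both scalings. As deposited that median was 0.03, against -0.29 over the 197 miRNAs above the cutoff in every sample. Less RNA per cell and fewer cells of a type cannot be told apart in such bulk samples.

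**Figure D5:**
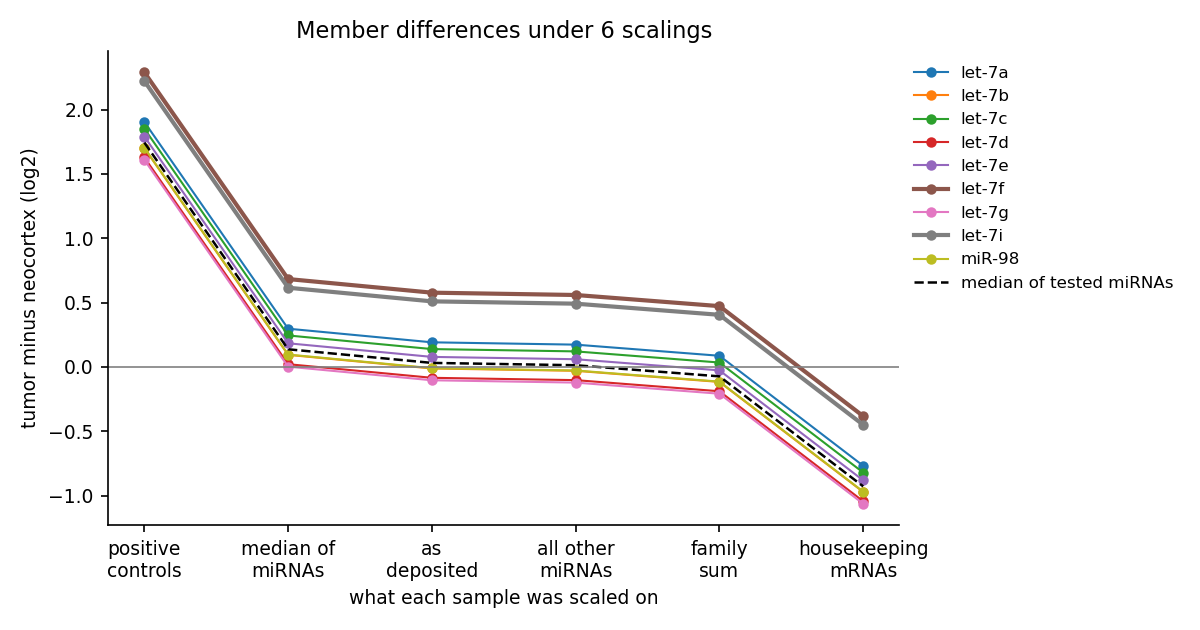
Points joined by lines give each member's log2 difference, tumor minus neocortex (vertical axis), when samples were scaled on 6 references (horizontal axis), and the dashed line gives the median of tested miRNAs. The members lie at 1.61 to 2.29 on positive controls and at -1.06 to -0.38 on housekeeping mRNAs. Each scaling applies 1 factor per sample, so the gaps between members are the same by construction, with let-7f and let-7i above the other 7.

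Within the tumors 2 members stood in strict order of age. let-7i was lower and let-7g higher with each step from postnatal day 65 to 104, 125 and 134, with the values given above. Over all tested miRNAs 12.4% stood in strict order of age in either direction. Each age is 1 sample, and total miRNA counts in the same order were 117640, 152597, 128553 and 208066. The part of depth in the order was not tested.

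The miRNAs encoded beside let-7 genes were compared because several are processed from shared primary transcripts. None of miR-99a, miR-99b, miR-100, miR-125a-5p and miR-125b-5p passed the limma test, and 2 were higher at an unadjusted p under 0.05. For all tested miRNAs the shares were 17.7% called in either direction and 14.5% higher at an unadjusted p under 0.05. All 5 had differences above 0, with a median of 0.27, against 0.08 for the let-7 family. Differences were above 0 for 144 of the 283 tested miRNAs, and for 63 of the 197 above the cutoff in every sample. miR-99b-5p, at 17830194 to 17830215 on chromosome 17, ends 137 bases before the let-7e hairpin, with miR-125a on the other side. The levels of miR-99b and miR-125a-5p were higher in every tumor than in every neocortex sample, as were those of 13.8% of tested miRNAs. miR-99b was at 8.45, 8.47, 8.26 and 8.27 in tumors 1 to 4, against 8.01, 7.73 and 7.64 in neocortex 1 to 3, a difference of 0.57 (SE 0.17, limma adjusted p = 0.067). miR-125a-5p differed by 0.54 (SE 0.18, limma adjusted p = 0.081), while let-7e of the same cluster differed by 0.08. Whether let-7e differed from its partners was not tested.

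The miR-30 family, another abundant set with a shared seed, was set beside let-7 for its spread. None of its 5 members passed the limma test, where 17.7% of tested miRNAs did. Their differences ran from -0.65 to 0.19 with a median of -0.19. Without regard to sign their median size was 0.19, against 0.10 for the let-7 family. They were below 0 for 4 of the 5, and for 134 of the 197 miRNAs above the cutoff in every sample. miR-30b and miR-30c were lower in every tumor than in every neocortex sample, as were 54 of the 283 tested miRNAs.

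Profiles across the 7 samples were compared to find the miRNAs most like the family. Likeness was measured as the root mean square difference of log2 values after each profile was centred on its own mean. The 3 non-members nearest to the summed family signal were miR-125b-5p, miR-140 and miR-193b, at 0.105, 0.122 and 0.131, of 188 compared. let-7a lay at 0.075 from the sum, and let-7i and let-7f lay farthest from it among members, at 0.28 and 0.34. Another member was the nearest miRNA for 3 of the 9 members, which were let-7b and let-7e with miR-98 and let-7d with let-7g. Each member was compared with 196 miRNAs, of which 8 were other members. let-7i was nearest to miR-99b, at 0.104. The nearest miRNA to let-7f was miR-130a, at 0.229, which was at 8.61 to 8.93 in the tumors and 7.51 to 8.33 in the neocortex samples.

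Summed levels of cell type markers are given beside the let-7 values, with no test. The summed log2 level of the 2 endothelial miRNAs, both above the cutoff in all samples, was 10.32 to 11.22 in tumor and 9.47 to 9.88 in neocortex. That of the 3 astrocyte-enriched miRNAs was 13.65 to 13.99 in tumor and 12.98 to 13.40 in neocortex, and that of the 3 oligodendrocyte-enriched miRNAs was 9.97 to 11.18 in tumor and 12.55 to 12.91 in neocortex. The groups did not overlap in these 3 sums, nor in that of the red blood cell miRNAs. Levels of single miRNAs, an unlike measure, did not overlap in either direction for 32.9% of those tested. The 3 red blood cell miRNAs summed to 8.63 to 9.40 in tumor and 8.07 to 8.51 in neocortex, with 2 of 3 above the cutoff in all neocortex samples. The 6 neuron-enriched miRNAs summed to 12.60 to 13.14 in tumor and 13.02 to 13.89 in neocortex, which overlap. The 6 microglial and leukocyte miRNAs summed to 8.87 to 9.96 in tumor and 8.72 to 9.06 in neocortex, with miR-142-5p at 0 in all 7 samples and miR-146a at 0 in all neocortex samples. The part of cell makeup in the let-7 values was not tested.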

How the data were processed

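The deposited values are log2 values per probe and sample from the nCounter mouse miRNA assay, per the file headers and the design text. How the authors normalized them and corrected background, and with which software, is not given in the sources used here. Low values on the linear scale were whole multiples of a single number per sample (100% of the 151 to 264 values under 60 counts in each sample, with a tolerance of 0.02 counts plus rounding), which gave counts; values under 8 to 16 counts are listed at 0. Because the deposited unit is log2, no count model was run.

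Tumor and neocortex were compared with limma 3.58.1 in R 4.3.3 (lmFit, eBayes, 2-sided, no covariate, no pseudocount) on the 283 of 566 miRNA probes whose mean reached 2.80, the median of that mean. Groups and replicate numbers came from the sample titles. The labels do not say that the neocortex samples came from separate animals, so p-values measure the spread between these samples. Shares used 2 to the power of the value, with listed zeros as 0. The code was tested on simulated data. Members, marker lists and tests were chosen with earlier results of these data known. All 9 members are named, with 5 neighbours, the 3 most similar non-members, and the nearest miRNA of each member; miR-1961 and miR-202-3p were chosen after their sequences were compared. Alternatives covered filters, scaling, background, pseudocounts, sex, pairing and each sample left out. Scaling on the family sum was added after the data were examined.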

Additional observations from a re-analysis of the deposited data

Results flagged for a closer look

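Among 19 sets of tumor values checked (the levels and shares of the 9 members and the family sum), 1 had a sample far from the others. The share of let-7g in tumor 2 was 14.4%, against 16.8%, 16.9% and 17.0% in tumors 1, 3 and 4, so that the gap to the nearest sample was 0.913 of the whole range, above Dixon's 95% critical value for 4 samples. Chance gives about 1 such case in 20 sets. The level of let-7g in tumor 2, 11.18, lay within the range of the other tumors, and the shares of let-7a, let-7b and let-7c were highest there among the tumors. The cause was not tested.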

How the results depend on the processing

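Group differences of the member shares were recomputed in 98 alternative values and set against the larger SD of single samples, 4.02 points for let-7c. In 63 of them 1 sample was left out, which by arithmetic cannot move a group mean by that group's SD. Those 63 could not reach the bar and show nothing about stability. The other 35 moved by less than the bar. Within that bar the let-7c difference of 0.48 points lay at -2.26 in male samples and at -1.83 to 1.69 with 1 sample left out, let-7e (-0.11) at 0.17 and -0.51 to 0.15, and let-7g (-2.51) at -1.33 and -3.13 to -1.89. Calls in limma, higher and lower, were 23 and 27 over all tested miRNAs. The count of higher calls was 67 with no filter (1 member higher, let-7i), 228 on positive controls (9 members higher; 0 lower calls over all), 10 on housekeeping mRNAs (135 lower over all, 4 members lower), 15 on the family sum and 15 with sex as a covariate. The count of lower calls was 41 with only miRNAs above 0 in all samples and 6 in male samples. With 1 sample left out there were 13 to 32 higher and 10 to 41 lower calls, with 0 to 1 member higher and 0 members lower. The family sum differed by 0.10, and by 1.82 on positive controls and -0.86 on housekeeping mRNAs; with 1 sample left out it lay between 0.036 and 0.20.

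Signs of member differences turned under several alternatives. Positive-control and housekeeping scaling apply a factor per sample to all values not listed at 0, and the medians over tested miRNAs lay at 1.74 and -0.93. On positive controls let-7b, let-7d, let-7g and miR-98 lay at 1.70, 1.63, 1.61 and 1.70. On housekeeping mRNAs let-7a, let-7c, let-7e, let-7f and let-7i lay at -0.77, -0.82, -0.88, -0.38 and -0.45. With median scaling let-7b, let-7d, let-7g and miR-98 lay at 0.094, 0.022, 0.0025 and 0.097, and by quantiles let-7b, let-7c, let-7d, let-7g and miR-98 at 0.19, -0.22, 0.088, 0.037 and 0.11. let-7e lay at -0.026 on the family sum, miR-98 at 0.0017 with the negative-control mean subtracted, let-7b at 0.00059 with sex as a covariate and let-7c at -0.11 in male samples. With 1 sample left out let-7b lay between -0.13 and 0.087, let-7c between -0.058 and 0.30, let-7e between -0.03 and 0.14 and miR-98 between -0.063 and 0.07. The cause was not tested beyond the construction of each alternative.

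With a replicate block over numbers 1 to 3, 5 miRNAs were higher and 0 lower and no member was called. Deviations of same-numbered samples correlated at -0.045, -0.035 and 0.061 across miRNAs, against -0.11 to 0.055 for samples of different numbers. With so few samples per group this check cannot decide whether the numbers pair the samples. Member counts were lowest in neocortex 3, where 119 let-7f counts had an exact Poisson interval of 98.6 to 142, and the part of counting error in the spread was not tested.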
